A study of Mus musculus with 5 samples.

Results

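Peritoneal macrophages of mice given acute oral ethanol with poly IC were compared with those of mice given poly IC alone. Poly IC (polyinosinic polycytidylic acid) is a synthetic double-stranded RNA. The comparison used 4 of the 5 Affymetrix MG-U74Av2 arrays of the series, chosen by their titles: 2 arrays of poly IC and 2 arrays of poly IC plus ethanol, 1 array per sample. Each of these samples was a pool of female C57Bl/6 x C3H F1 mice aged 12 weeks. Both ethanol pools received 6 g/kg ethanol and 0.1 mg poly IC per mouse. The second poly IC pool received 0.1 mg per mouse, and no dose is stated for the first. The fifth array, an untreated (naive) control whose label gives no sex, age or pool, served only as a reference level. No array came from mice given ethanol without poly IC, so an effect of ethanol by itself cannot be told apart from an altered response to poly IC. The p-values measure the spread between pools, and the small number of arrays limited the precision.

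Macrophages sense double-stranded RNA in endosomes through Toll-like receptor 3 and in the cytosol through MDA5. Both routes switch on type I interferon and NF-kB targets. Secreted interferon then acts back on the cells and drives a wide set of antiviral effector genes, while NF-kB drives cytokines and chemokines. Ethanol is oxidised mainly in the liver, and an acute high dose also activates the adrenal release of glucocorticoids, which are known to dampen inflammatory genes in macrophages.

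Signals were the submitters' scaled values, and differences are given as log2(signal + 250) with ethanol minus without, which understates the change of dim genes. Lyz2 (lysozyme) and Cd68, markers of the labelled cell type, were bright on all treated arrays, with Lyz2 between 73144 and 81816 and Cd68 between 25163 and 27474. Across 7453 probe sets, which are not independent replicates, log2 signals correlated at 0.973 within the poly IC pair, 0.964 within the ethanol pair and 0.938 to 0.952 between the pairs. The second poly IC array stood apart in its 3' probe set for 18S ribosomal RNA, at 66548 against 5113 on the first poly IC array and 8225 and 19415 on the ethanol arrays. Counts are therefore also given without it.

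At the deposited scaling, ethanol raised about as many genes as it lowered. Of 5573 genes tested with limma, 484 were called at adjusted p under 0.05, 245 higher and 239 lower with ethanol. These are 8.68%, 4.4% and 4.29% of the genes tested. An unadjusted p under 0.05 was reached by 1411 genes. Of the rises 93 and of the falls 73 were at least 2-fold, and 6 genes changed at least 4-fold. In 177 of the 245 genes called higher, the ethanol mean lay between the naive signal and the poly IC mean. The same was true of 175 of the 239 called lower. The poly IC arrays enter both the call and this position, and no share was taken over all genes tested. These counts alone therefore cannot show a return toward the naive level. In each called gene both arrays of one group lay beyond both arrays of the other. Over all genes tested the ethanol arrays lay above both poly IC arrays in 32.7% and below both in 21.8%. Of 7453 probe sets, 584 were called (7.84%), with 296 higher (3.97%) and 288 lower (3.86%). The share of calls that were higher was 50.7%, and 35.2% after centring each array on its median, which moved the median of all probe sets from 0.067 to -0.031. Calls depended on signal, from 1.56% of probe sets in the dimmest of 4 equal bins to 15.8% in the brightest. Fewer probe sets were called without the second poly IC array (111 against 584) or without the first (179), and more without the first ethanol array (990). Of the 484 genes, 69 were called with any 1 array left out, 51 with a variance prior that has no trend with signal, and 218 with all probe sets tested.

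**Figure D1:**
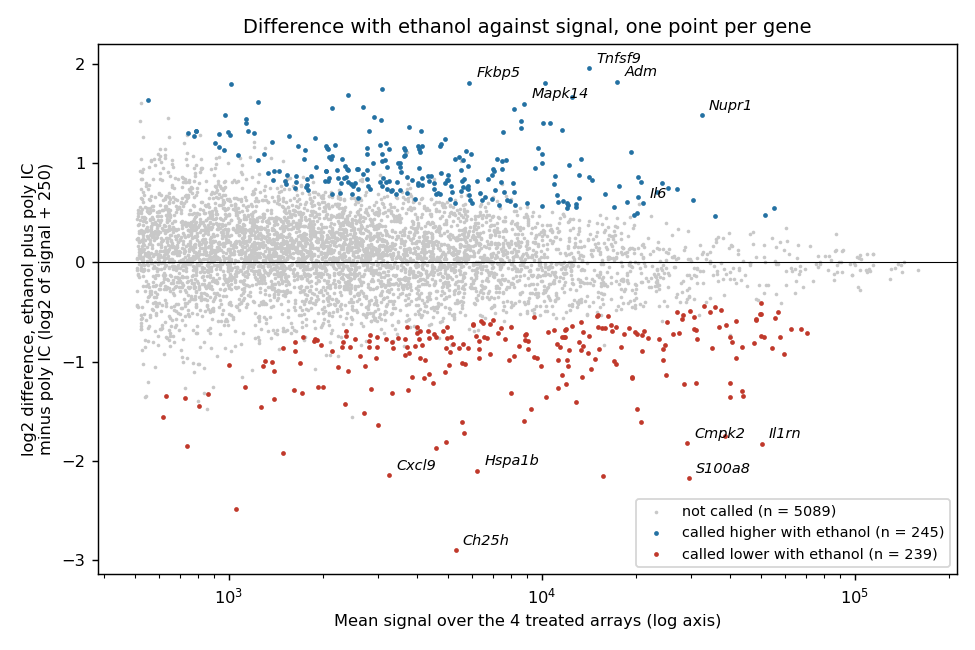
The log2 difference with ethanol (vertical axis) is plotted against the mean signal over the 4 treated arrays (log axis), 1 point per tested gene. Called genes (245 higher, 239 lower) lie on both sides of 0, and Ch25h at -2.90 and Tnfsf9 at 1.96 mark the ends.

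The gene that fell furthest was Ch25h, cholesterol 25-hydroxylase, which makes the antiviral oxysterol 25-hydroxycholesterol. Its signal was 7542 and 11600.2 in the poly IC pools against 1055 and 1026 in the ethanol pools, and 224.0 on the naive array. The ethanol signals lay within a narrow range far below either poly IC signal (log2 difference -2.90, SE 0.22, adjusted p = 0.000415). The gene that rose furthest was Tnfsf9, which encodes the T cell co-stimulatory ligand 4-1BBL. Its signal was 5921 and 5356 in the poly IC pools against 23286 and 21926 in the ethanol pools (1.96, SE 0.13), so that a gene at 172 on the naive array stood highest in the ethanol pools. Adm, the vasodilator peptide adrenomedullin, showed the same order, which was held by 23 of the 245 genes called higher. Its signal was 8126 and 7035 in the poly IC pools against 28187 and 26468 in the ethanol pools, and it was 1266 on the naive array (1.82, SE 0.13). Nupr1, a stress-induced chromatin protein that was chosen after its values were seen, also stood highest with ethanol. Its signal was 17548 and 16449 in the poly IC pools against 48285 and 47599.5 in the ethanol pools, and 7154 on the naive array (1.48, SE 0.11). Fkbp5, an HSP90 co-chaperone and a classical glucocorticoid-induced gene, did not follow that order. Its signal was 2479 and 2436 in the poly IC pools against 9104 and 9382 in the ethanol pools, so the poly IC arrays lay below the naive signal of 3377 and the ethanol arrays above it (1.81, SE 0.15). All of them kept their calls with any 1 array left out and without the trend.

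Markers of other cell types moved in the same comparison and are given first. In bulk samples fewer cells of a type and less RNA per cell cannot be told apart. Of 16 neutrophil markers, 5 fell and none rose with limma (12 had an unadjusted p under 0.05), with a median difference of -0.85 beside 0.07 for all genes. Their summed signal was 197567 and 158731 in the poly IC pools, 106308 and 89412 in the ethanol pools, against 83106 on the naive array. The falls are 31.2% of the neutrophil list, beside 4.29% of all genes tested. S100a8 and S100a9, the calprotectin subunits that neutrophils hold in bulk, fell from high levels. S100a8 was 56818 and 40341 in the poly IC pools against 10640.5 and 10209 in the ethanol pools (-2.17, SE 0.16), and S100a9 changed by -2.15 (SE 0.19). Without the second poly IC array 5 of the list fell, and without the first 2, with a median of -0.42 in place of -0.85. Mmp8, neutrophil collagenase, was 2704 and 1257 with poly IC and below the brightest unspiked control on both ethanol arrays, at least 5.06-fold lower. The granule genes Ngp, Ltf, Camp and Ly6g were not called (differences -1.48, -0.96, -0.65 and -0.86), and Ngp was 2729.6 and 265 on the poly IC arrays. Mpo, Elane and Ctsg, the azurophil granule genes, lay below the signal filter. The part of neutrophils in the other results was not tested. Of 20 B cell markers, 5 rose and none fell with limma (10 had an unadjusted p under 0.05), with a median of 0.33 and a summed signal of 267649 and 238698 in the poly IC pools, 319642 and 332007 in the ethanol pools, against 519562 on the naive array. The rises are 25% of the B cell list, beside 4.4% of all genes tested. Cd79b, a signalling chain of the B cell receptor, was 5064 and 3808 in the poly IC pools against 14953 and 17032 in the ethanol pools (1.80, SE 0.17). The kinase gene Blk rose by 1.33 (SE 0.15) and the transcription factor gene Spib by 1.32 (SE 0.20), although another probe set of Spib differed by only 0.12. Cd79a, the other receptor chain, rose by 0.71 and the adaptor gene Blnk by 0.88, and the surface marker Ms4a1 (CD20) was not called (0.18). Of the list 3 rose without the first poly IC array and 4 without the second. Of 8 inflammatory monocyte markers, 2 fell (Ms4a4c by 1.81 and Vcan by 1.61 on the log2 scale) and none rose with limma (2 had an unadjusted p under 0.05), with a median of -0.13. Their summed signal was 180922 and 183695 in the poly IC pools, 167278 and 170148 in the ethanol pools, against 143356 on the naive array. The falls are 25% of the monocyte list, beside 4.29% of all genes tested. Ccr2, the monocyte chemokine receptor that defines these cells, was not called (0.65, adjusted p = 0.257). None of 17 resident peritoneal macrophage markers was called with limma (4 had an unadjusted p under 0.05), with a median of 0.06, but 2 were called without ethanol replicate 1 and 1 without ethanol replicate 2. Gata6, their defining transcription factor, was 1169 and 1531 in the poly IC pools against 1851 and 2188 in the ethanol pools (adjusted p = 0.179). Of 11 general macrophage markers, 1 fell (Fcgr1, -1.48) and none rose with limma (2 had an unadjusted p under 0.05), with a median of -0.09. That is 9.09% called, near the 8.68% of all genes. The median was -0.17, -0.02, -0.13 and -0.01 without poly IC replicates 1 and 2 and ethanol replicates 1 and 2 in turn. The haemoglobin gene Hba-a1, a red cell marker whose near-identical copy may share its probes, overlapped between groups, at 14514 and 26049 in the poly IC pools against 14985 and 7794 in the ethanol pools. Cd3e, Cd3d and Cd8a, which define T cells, lay below the filter. No longer called without poly IC replicate 1 were Mmp8 (-1.99), Spib (1.10), Cd79a (0.83) and Blnk (0.71), and without replicate 2 Cd79a (0.59). Cd79a and Blnk also lost their calls after centring arrays on their medians.

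**Figure D2:**
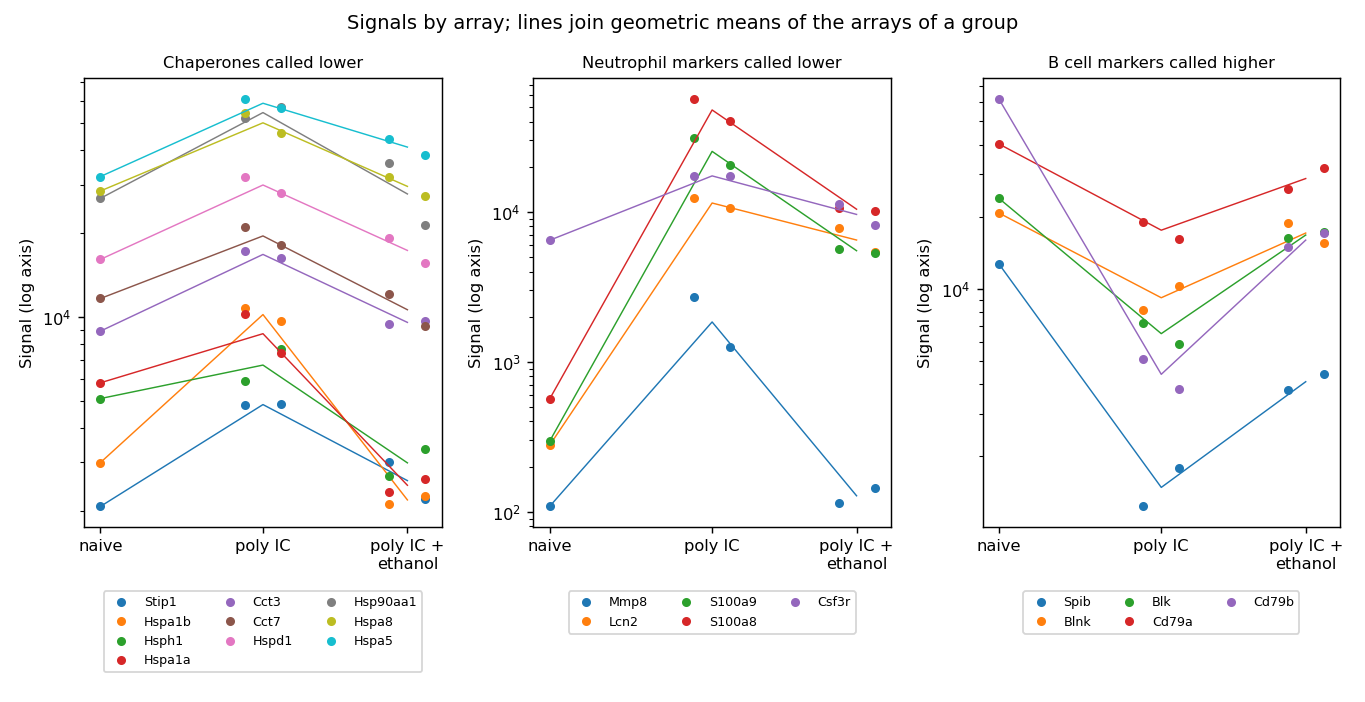
Signals on each array (log axis) are shown for the 10 chaperone genes called lower, the 5 neutrophil markers called lower and the 5 B cell markers called higher, with lines joining group means on the log scale. S100a8 falls from 56818 and 40341 to 10640.5 and 10209, while Cd79b rises from 5064 and 3808 to 14953 and 17032.

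Most tested interferon-stimulated effectors were lower with ethanol. Of 44 members, 27 fell and 2 rose, with a median of -0.70. The falls are 61.4% of the list, beside 4.29% of all genes tested. Without the second poly IC array 14 fell and none rose (limma, with 31 members at an unadjusted p under 0.05, median -0.65), and without the first 19 fell and 1 rose. Neutrophil markers moved down beside them (median -0.85, and -0.42 without the first poly IC array), and their part was not tested. Usp18, which removes ISG15 from proteins and restrains interferon receptor signalling, was 50658 and 64772 in the poly IC pools against 24548 and 20263 in the ethanol pools (-1.35, SE 0.15, adjusted p = 0.00187). Both ethanol signals were less than the lower poly IC signal. The RNA-editing enzyme gene Adar went from 15814 and 17807 to 7557 and 6579.9 (-1.22, SE 0.14). Ifit3 and Ifit2, whose proteins bind viral RNA in complexes, fell by similar amounts on the log2 scale (-1.22 and -1.13, SE 0.11 and 0.12). Ifih1, which encodes the double-stranded RNA sensor MDA5, was 44582 and 45799.8 in the poly IC pools against 26601 and 23069.9 in the ethanol pools (-0.86, SE 0.11). The exonuclease gene Isg20 (-1.02, SE 0.13), the nuclear body gene Sp100 (-1.29, SE 0.17), Daxx (-0.98, SE 0.13) and the tripartite motif gene Trim30a (-1.16, SE 0.18) fell too. The kinase gene Eif2ak2 (PKR), which halts translation on double-stranded RNA, changed by -0.98 (SE 0.16), and Mx1 by -0.58 (SE 0.11). The size of the change varied among members, and some of the brightest differed little. Slfn2, a T cell quiescence regulator also induced in macrophages, was 111205 and 119393 in the poly IC pools against 113961 and 112425 in the ethanol pools (-0.03, 95% interval -0.21 to 0.16, adjusted p = 0.894), with overlapping groups. The membrane protein genes Ly6e and Ifitm3 and the ligase gene Trim25 had differences of -0.18, -0.09 and -0.05. The genes that rose were Ifi30, a lysosomal thiol reductase (0.69, SE 0.17), and Plscr1, phospholipid scramblase 1 (14862 and 12623 to 20038 and 20637, 0.56, SE 0.13). Trim30a (-0.91), Eif2ak2 (-1.01), Mx1 (-0.55) and Plscr1 (0.68) missed the threshold when poly IC replicate 1 was left out, and Eif2ak2 (-0.96), Mx1 (-0.62), Ifi30 (0.44) and Plscr1 (0.45) when replicate 2 was. Ifi30 and Plscr1 also lost their calls after centring arrays on their medians.

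The promoters of 4 of these genes are shown because they hold the core of the interferon-stimulated response element, the DNA sequence bound by the interferon-activated factor ISGF3. They are among the called effectors or GTPases with the largest falls whose 250 bases before the transcript start hold GAAANNGAA on either strand. The sequences are from RefSeq (build GRCm38.p6), 5' to 3' on the strand of the gene and ending just before the start, with the match in capitals.
Rsad2, chr12:26456453-26456702, minus strand: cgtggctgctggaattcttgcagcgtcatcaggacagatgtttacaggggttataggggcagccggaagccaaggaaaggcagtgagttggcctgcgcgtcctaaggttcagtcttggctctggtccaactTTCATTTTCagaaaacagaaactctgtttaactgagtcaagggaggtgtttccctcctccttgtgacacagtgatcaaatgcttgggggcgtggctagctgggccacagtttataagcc
Adar, chr3:89730468-89730717, plus strand: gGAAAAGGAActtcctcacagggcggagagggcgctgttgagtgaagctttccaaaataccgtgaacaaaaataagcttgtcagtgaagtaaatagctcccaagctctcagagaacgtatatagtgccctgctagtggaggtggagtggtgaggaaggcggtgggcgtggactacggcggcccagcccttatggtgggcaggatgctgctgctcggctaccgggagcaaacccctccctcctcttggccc
Ifit3, chr19:34583279-34583528, plus strand: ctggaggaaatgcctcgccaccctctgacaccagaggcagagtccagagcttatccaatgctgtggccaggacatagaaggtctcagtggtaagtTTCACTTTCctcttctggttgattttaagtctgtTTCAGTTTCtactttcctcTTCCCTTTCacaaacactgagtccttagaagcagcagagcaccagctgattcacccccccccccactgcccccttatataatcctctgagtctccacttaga
Trim30a, chr7:104465194-104465443, minus strand: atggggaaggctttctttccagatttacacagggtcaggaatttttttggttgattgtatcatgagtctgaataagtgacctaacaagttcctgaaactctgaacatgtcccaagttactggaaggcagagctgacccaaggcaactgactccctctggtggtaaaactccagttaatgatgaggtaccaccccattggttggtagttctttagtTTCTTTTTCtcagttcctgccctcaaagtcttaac
Ifit3 holds 3 matches, starting 155, 121 and 102 bases before the start, and the other genes hold 1 each. The match of Adar lies at the far edge of the window. Of 198 genes called lower with a promoter in the table, 32 (16.2%) held the core within 250 bases before and 50 after the start, as did 15 of 197 called higher (7.61%), 395 of 4506 tested genes (8.77%) and 2812 of 32851 promoters in the table (8.56%). Within the interferon-stimulated effectors the core was held by 6 of 11 members not called and by 11 of 23 called lower. The gamma-activated site TTCCNGGAA was found in 1.01% of genes called lower and 1.42% of all genes tested, and the kB site GGANTTTCC in 2.02% and 1.82%. These motifs can overlap one another, and each was searched on both strands.

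The interferon-inducible GTPases, which act on vacuoles that hold pathogens, were all lower with ethanol in group mean. Their differences ranged from -1.75 to -0.305, and not all are named here. Of 9 tested, 7 fell (median -0.63), against 3 without the first poly IC array and 2 without the second. The 7 falls with all arrays are 77.8% of the list, beside 4.29% of all genes called lower. Gbp2b went from 31319 and 31492 to 20044 and 14552 (-0.87, SE 0.16), and its sequence is close to that of other Gbp genes, so their signals may be shared. Ifi47, Irgm1 and Irgm2 changed by -0.63, -0.54 and -0.45. Of 28 interferon signalling genes (receptors, kinases, STAT and IRF factors and inhibitors), 2 fell and 1 rose, with a median of 0.04. That is 10.7%, near the 8.68% of all genes. Limma called 1, 0, 6 and 3 (unadjusted p under 0.05 in 7, 5, 10 and 10) of them without poly IC replicates 1 and 2 and ethanol replicates 1 and 2 in turn. The kinase gene Jak2 fell from 14386 and 15550.1 to 9852 and 7838 (-0.75, SE 0.15), and Irf4 rose from 2455 and 2387 to 3846 and 4459 (0.72, SE 0.17). Irf1, a first-wave interferon target, was 30905 and 31046 in the poly IC pools against 29028 and 27507 in the ethanol pools (adjusted p = 0.509), and the feedback inhibitor genes Socs1 and Socs3 differed by -0.30 and 0.08. The receptor subunit gene Ifnar1 differed by 0.02 (SE 0.18) and Ifnar2 by -0.64 (SE 0.19, adjusted p = 0.0814, and -0.15 with overlapping groups at another probe set). Among the interferons and the cytokines that induce them, Il15, which sustains natural killer cells, fell from 4584 and 5092 to 2151 and 1486 (-1.32, SE 0.20), and Il18 changed by -0.77 (SE 0.19). Ifnb1 was dim and scattered, at 96.6 and 787 in the poly IC pools against 699.7 and 471 in the ethanol pools, so no difference was detectable (SE 0.53). Without poly IC replicate 1 the calls of Gbp2b (-0.87), Ifi47 (-0.60), Irgm1 (-0.47), Irgm2 (-0.52), Jak2 (-0.81), Irf4 (0.74) and Il18 (-0.70) were lost, and without replicate 2 those of Gbp2b (-0.87), Ifi47 (-0.66), Irgm1 (-0.60), Irgm2 (-0.39), Jak2 (-0.70), Irf4 (0.70), Il15 (-1.24) and Il18 (-0.85). Irgm1 (-0.41), Irf4 (0.62) and Il18 (-0.61) also lost their calls without ethanol replicate 2, as did Irgm1, Irgm2 and Irf4 after centring arrays on their medians, and Irgm1, Irgm2 and Irf4 after quantile normalization.

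**Figure D3:**
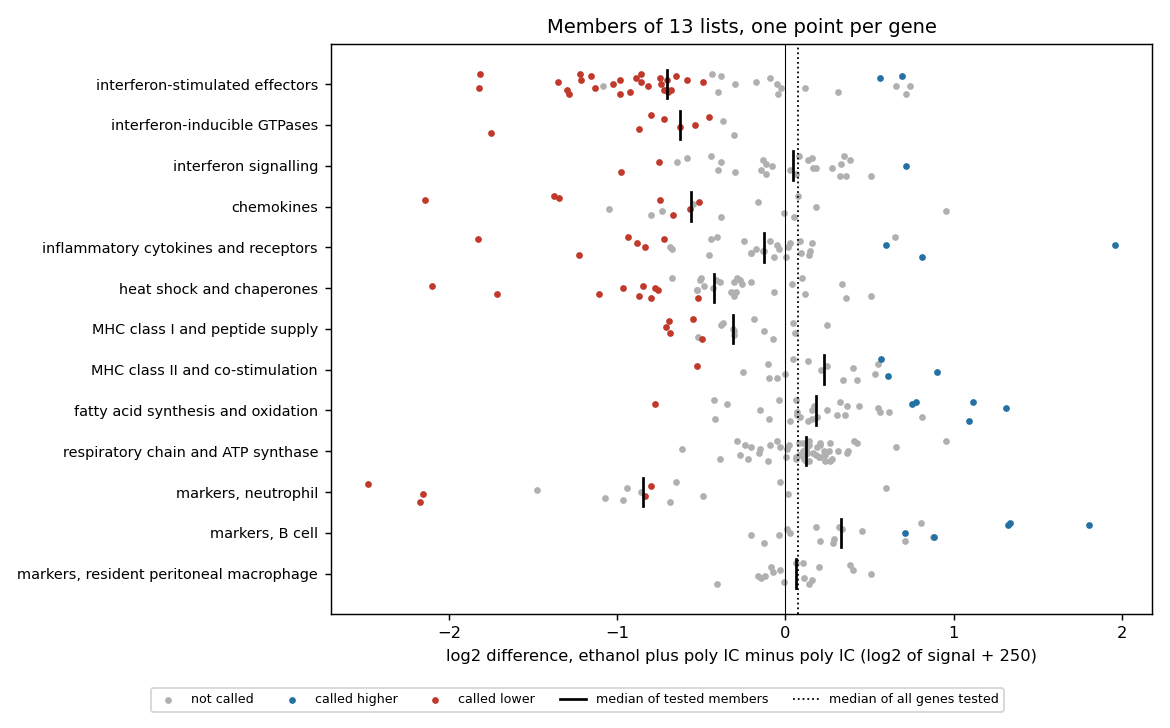
Each point is 1 tested gene of 1 of 13 lists, placed by its log2 difference with ethanol, with the median of each list as a black bar and that of all genes as a dotted line. Interferon-stimulated effectors centre at -0.70, neutrophil markers at -0.85 and interferon signalling genes at 0.04.

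Calls among chemokines were falls, and calls among cytokines went both ways. The chemokine differences ranged from -2.14 to 0.95, and not all called chemokines are named here. Of 18 chemokines, 7 fell and none rose (limma, with 11 at an unadjusted p under 0.05, median -0.56), and 4 fell without the first poly IC array and 2 without the second. With all arrays the 7 falls are 38.9% of the chemokine list, beside 4.29% of all genes called lower. Ccl12, a monocyte chemokine, went from 1941 and 2296 to 499 and 852 (-1.38, SE 0.25). The neutrophil chemokines Cxcl1 and Cxcl2 were not called. Cxcl1 was 100711 and 102348 in the poly IC pools against 107216 and 106224 in the ethanol pools (adjusted p = 0.643), and Cxcl2 differed by 0.05 (SE 0.11). Of 33 inflammatory cytokines and receptors, 6 fell and 3 rose, and 4, 3, 12 and 9 were called without poly IC replicates 1 and 2 and ethanol replicates 1 and 2 in turn. With all arrays the calls made up 27.3% of the cytokine list (18.2% lower), beside 8.68% (4.29% lower) of all genes. Within the interleukin-1 family, called and uncalled genes stood side by side. Il1rn, the secreted receptor antagonist, fell from 75346 and 82394 to 23939 and 20300.4 (-1.83, SE 0.12, adjusted p = 0.000415). Il1b fell from 45231 and 34334 to 20407 and 13655 (-1.23, SE 0.20), and Casp1, the protease that matures it, changed by -0.97 (SE 0.14). Il1a was 44088 and 38056 in the poly IC pools against 45194 and 41782 in the ethanol pools (0.08, SE 0.11), with overlapping groups. Tnf was 6489 and 6261 in the poly IC pools against 5720.2 and 7256 in the ethanol pools (0.02, 95% interval -0.36 to 0.39), also overlapping. Neutrophil markers fell in the same comparison (5 of 16), and their part was not tested. Il10, an inhibitory cytokine, and Il12b differed by -0.20 and -0.18 (adjusted p = 0.581 and 0.662). Il6 rose, from 18292 and 15169 with poly IC to 24745 and 25951 with ethanol (0.60, SE 0.13, adjusted p = 0.0297). The receptor gene Il17ra also rose (16352 and 13707 to 24863 and 28074, 0.81, SE 0.14), while Cd40, Il15ra and Fas fell (-0.94, -0.88 and -0.72). No longer called without poly IC replicate 1 were Ccl12 (-1.49), Il1b (-1.03), Il6 (0.73), Cd40 (-1.01) and Fas (-0.70), and without replicate 2 Ccl12 (-1.27), Casp1 (-0.89), Il6 (0.46), Il17ra (0.68), Cd40 (-0.87), Il15ra (-0.76) and Fas (-0.74). Fas (-0.54) also lost its call without ethanol replicate 2, as did Il6 after centring arrays on their medians.

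NF-kB subunits, inhibitors and targets were called at 15% (12.5% lower), beside 8.68% (4.29% lower) of all genes tested. Of 40 members, 5 fell and 1 rose, and its median was -0.28. The list held 2, 1, 10 and 5 calls without poly IC replicates 1 and 2 and ethanol replicates 1 and 2 in turn, with limma. The inhibitor genes Nfkbia and Tnfaip3, which NF-kB itself induces, differed by 0.13 and -0.01 (SE 0.08 and 0.11), and the subunit genes Rela and Relb by 0.03 and -0.26. Enzyme genes within and beside the list held further calls. Ptgs2 (cyclooxygenase 2) was 8925 and 7578 in the poly IC pools against 4396 and 4384 in the ethanol pools (-0.87, SE 0.16). Ptges, the prostaglandin E synthase that works with it, went from 29516 and 33247 to 11673 and 8779 (-1.61, SE 0.16, adjusted p = 0.00113). Its naive signal was 1165. Ptger4, a receptor for that prostaglandin, rose from 4218 and 5732 to 10478 and 10209 (1.03, SE 0.17). Lta4h, which makes leukotriene B4, rose by 0.60 (SE 0.15). Hdc, which makes histamine and is also on the mast cell list, fell from 28453 and 25488 to 12709 and 11266 (-1.15, SE 0.13). Acod1, the itaconate enzyme, changed by -0.67 (SE 0.11, and -1.27 at another called probe set), arginase Arg2 by -0.84 (SE 0.19) and the inducible nitric oxide synthase Nos2 by -1.03 (SE 0.26, limma adjusted p = 0.0491). Nos2 lay at the threshold and missed it with an offset of 1000 (0.0508) and with the naive array in the fit (0.0721). Cd83, a surface marker of activated antigen-presenting cells, rose by 0.77 (SE 0.12), and its other probe set was not called (0.40). Ptgs2 (-0.75), Ptger4 (0.82), Lta4h (0.71), Arg2 (-0.65), Nos2 (-1.25) and Cd83 (0.80) missed the threshold when poly IC replicate 1 was left out, and Ptgs2 (-0.98), Lta4h (0.48), Acod1 (-0.57), Arg2 (-1.03), Nos2 (-0.81) and Cd83 (0.74) when replicate 2 was. Lta4h (0.56) also lost its call without ethanol replicate 2, as did Lta4h after centring arrays on their medians.

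Calls in the sensing list were in kinase genes. Mapk14, which encodes p38 alpha, was 4665 and 3827 in the poly IC pools against 14242 and 12459.9 in the ethanol pools, and 18409 on the naive array (1.60, SE 0.16, adjusted p = 0.00128). Of 20 members of the sensing list it alone rose, and the kinase gene Map2k1 fell (-0.68, SE 0.13). The calls made up 10% of the list, near the 8.68% of all genes. The double-stranded RNA sensor gene Ifih1 (-0.86) is not among these members and is given with the effectors. The adaptor gene Myd88 and the co-receptor gene Cd14 differed by -0.45 and -0.17, neither called. Of 29 phosphatases and immediate-early factors, 6 fell and 1 rose, and 4, 2, 11 and 5 were called without poly IC replicates 1 and 2 and ethanol replicates 1 and 2 in turn. With all arrays the calls made up 24.1% of this list (20.7% lower), beside 8.68% (4.29% lower) of all genes. Id1, an inhibitor of basic helix-loop-helix factors, went from 2206 and 2809 to 571 and 393 (-1.92, SE 0.24). Mxd1, which opposes MYC, went from 8139 and 6533 to 1821 and 1813 (-1.87, SE 0.17), a narrow pair of ethanol values below either poly IC value. Nr4a1, an orphan nuclear receptor of the early response, changed by -0.87 (SE 0.21), Klf10 by -0.83 (SE 0.19, and -2.00 at another called probe set) and Jund by 0.48 (SE 0.11). Klf2, which restrains inflammatory activation of myeloid cells, fell from 16173 and 21386 to 7308 and 6431 (-1.41, SE 0.17). Zfp36, whose protein destabilises cytokine messages, changed by -0.50 (SE 0.12), and the phosphatase gene Dusp1 was not called (0.05, SE 0.10). Without poly IC replicate 1 the calls of Map2k1 (-0.74), Nr4a1 (-0.86), Klf10 (-0.91), Jund (0.38) and Zfp36 (-0.61) were lost, and without replicate 2 those of Map2k1 (-0.62), Id1 (-1.76), Nr4a1 (-0.87), Klf10 (-0.75), Jund (0.57) and Zfp36 (-0.40). Nr4a1 (-0.69), Jund (0.41) and Zfp36 (-0.43) also lost their calls without ethanol replicate 2, as did Jund and Zfp36 after centring arrays on their medians, and Zfp36 after quantile normalization.

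The chaperone genes that passed the test were all lower with ethanol. Of 34 tested, 10 fell and none rose with limma (20 had an unadjusted p under 0.05), with a median of -0.42. The falls are 29.4% of the list, beside 4.29% of all genes tested. Without the second poly IC array 3 fell, and without the first 3. Hspa1b, the inducible HSP70, was 10748 and 9699 in the poly IC pools against 2127 and 2265 in the ethanol pools (-2.10, SE 0.16, adjusted p = 0.000415). Its ethanol signals lay below the naive signal of 2993 as well. Hspa1a, a near-identical copy whose probes may read the same transcripts, went from 10230.1 and 7419 to 2350.5 and 2613 (-1.72, SE 0.19). Hsph1 (HSP110), a nucleotide exchange factor for HSP70, went from 5871 and 7682 to 2667 and 3340.4 (-1.11, SE 0.19). Hsp90aa1, the inducible cytosolic HSP90, was 51913 and 57238 in the poly IC pools against 35987 and 21411 in the ethanol pools (-0.97, SE 0.21). The constitutive HSP70 gene Hspa8 (-0.76), the mitochondrial chaperonin gene Hspd1 (-0.77), the co-chaperone gene Stip1 (-0.85) and the cytosolic chaperonin subunits Cct3 and Cct7 (-0.80 and -0.87) fell less. Hspa5, the HSP70 of the endoplasmic reticulum, had the smallest fall of the 10 (-0.52, SE 0.11). The small heat shock genes Cryab and Hspb8 were not called (0.12 and 0.51), nor was Dnajb1 (-0.07, SE 0.20). Of 27 genes of endoplasmic reticulum and amino acid stress, none was called with limma (5 had an unadjusted p under 0.05), and their median was -0.02. Limma called 0, 0, 4 and 1 (unadjusted p under 0.05 in 1, 2, 8 and 5) of these without poly IC replicates 1 and 2 and ethanol replicates 1 and 2 in turn. No longer called without poly IC replicate 1 were Hsp90aa1 (-1.04), Hspa8 (-0.64), Hspd1 (-0.68), Stip1 (-0.86), Cct3 (-0.75), Cct7 (-0.76) and Hspa5 (-0.47), and without replicate 2 Hsph1 (-0.92), Hsp90aa1 (-0.90), Hspd1 (-0.87), Stip1 (-0.84), Cct3 (-0.84), Cct7 (-0.98) and Hspa5 (-0.57). Hspa5 also lost its call after quantile normalization.

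The promoter of Hspa1b is shown because it holds the core of the heat shock element, GAANNTTC, which the heat shock factor HSF1 binds. The 250 bases before the start are given in the same way as above.
Hspa1b, chr17:34959239-34959488, minus strand: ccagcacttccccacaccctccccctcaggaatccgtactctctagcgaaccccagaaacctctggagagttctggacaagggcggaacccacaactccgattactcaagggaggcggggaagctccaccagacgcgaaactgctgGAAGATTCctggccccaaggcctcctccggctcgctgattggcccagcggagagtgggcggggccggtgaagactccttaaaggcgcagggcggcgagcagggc
The match starts 104 bases before the transcript start. The core was found in 4 of 8 chaperone genes called lower and 7 of 21 not called that had a promoter in the table. Over all sets it was held by 7.58% of genes called lower, 10.2% of those called higher, 6.84% of genes tested and 7.86% of promoters in the table.

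Calls among class I antigen presentation genes were falls, and most of those among class II genes were rises. Of 17 class I and peptide supply genes, 5 fell and none rose with limma (9 had an unadjusted p under 0.05, median -0.31). The falls are 29.4% of the class I list, beside 4.29% of all genes tested. The immunoproteasome subunit genes Psmb10, Psmb9 and Psmb8 changed by -0.71, -0.69 and -0.55 (SE 0.12, 0.14 and 0.11). Psmb10 was 31692 and 36596 in the poly IC pools against 21205 and 20222 in the ethanol pools. The peptide transporter gene Tap1 fell by 0.50, but a second, dim probe set gave 0.84 and was not called, and the mean over both gave 0.17. Without the first poly IC array 1 of the class I list was called, and without the second none was with limma (5 at an unadjusted p under 0.05). Of 18 class II and co-stimulation genes, 3 rose and 1 fell (median 0.23), and limma called 0, 0, 5 and 4 (unadjusted p under 0.05 in 6, 6, 10 and 6) without poly IC replicates 1 and 2 and ethanol replicates 1 and 2 in turn. With all arrays the class II list was called at 22.2% (16.7% higher), beside 8.68% (4.4% higher) of all genes. The class II genes H2-Ob (2949.5 and 3577 to 5804 and 6783, 0.90), H2-DMa (0.61, with 0.13 from another probe set) and H2-DMb2 (0.57) rose. B cells express all of them, B cell markers rose in the same comparison (5 of 20, median 0.33), and their part was not tested. The co-stimulatory gene Cd86 fell by 0.53, and its other probe set was not called (-0.61). Psmb9 (-0.77), Psmb8 (-0.61), Tap1 (-0.57), H2-Ob (0.77), H2-DMa (0.61), H2-DMb2 (0.64) and Cd86 (-0.63) missed the threshold when poly IC replicate 1 was left out, and Psmb10 (-0.61), Psmb9 (-0.61), Psmb8 (-0.49), Tap1 (-0.43), H2-Ob (1.03), H2-DMa (0.61), H2-DMb2 (0.49) and Cd86 (-0.43) when replicate 2 was. H2-DMb2 (0.54) and Cd86 (-0.50) also lost their calls without ethanol replicate 2, as did H2-DMa, H2-DMb2 and Cd86 after centring arrays on their medians, and Psmb8, Tap1 and Cd86 after quantile normalization.

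Of 34 glucocorticoid-responsive genes, 2 rose (5.88%, beside 4.4% of all genes) and 3 fell (8.82%, beside 4.29%), with a median of -0.07. Calls in this list numbered 3, 2, 9 and 6 without poly IC replicates 1 and 2 and ethanol replicates 1 and 2 in turn, of which 7 were falls without ethanol replicate 1. Beside Fkbp5, the transcription factor gene Klf9 rose from 2103 and 2400.3 to 4282 and 3962 (0.81, SE 0.17), and its other probe set by 1.53. The metallothionein gene Mt2, whose product binds zinc, was bright in both groups. Mt2 was 141873 and 150472 in the poly IC pools against 134545 and 139239 in the ethanol pools (-0.09, SE 0.08). The receptor gene itself, Nr3c1, was 5126 and 5313 in the poly IC pools against 4029 and 3525 in the ethanol pools (adjusted p = 0.132). Tsc22d3 (GILZ), a widely used glucocorticoid target, lay below the signal filter on these arrays, at 158 and 727 in the poly IC pools, 386 and 434 in the ethanol pools. The factor genes Cebpd and Cebpb, which also answer to inflammatory cytokines, fell (-0.86 and -0.75, SE 0.10 and 0.12). Lcn2 (lipocalin 2), which is also on the neutrophil list, changed by -0.80 (SE 0.19), but only by 0.11 at another probe set. The circadian gene Per1 and the phosphatase gene Dusp1 were not called (-0.44 and 0.05). The core of the glucocorticoid response element, ACANNNTGT, was found in 7.11% of promoters of genes called higher, 6.06% of those called lower and 5.33% of genes tested. Without poly IC replicate 1 the calls of Klf9 (0.72) and Lcn2 (-0.68) were lost, and without replicate 2 those of Klf9 (0.89), Cebpb (-0.60) and Lcn2 (-0.91). Lcn2 (-0.54) also lost its call without ethanol replicate 2, as did Klf9 after centring arrays on their medians.

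Metabolic calls were few, and most were in lipid genes. Acss1, which turns acetate into acetyl-CoA in mitochondria, was 1636 and 963 in the poly IC pools against 4235 and 5501 in the ethanol pools, and 12006 on the naive array (1.75, SE 0.24, adjusted p = 0.00536). It was the called member among 15 genes of ethanol, aldehyde and acetate metabolism (6.67%, beside 8.68% of all genes, median 0.19). Aldh2, the main acetaldehyde-clearing enzyme, was 19753 and 17783 in the poly IC pools against 22157 and 19198 in the ethanol pools (adjusted p = 0.586), and Cyp2e1, the ethanol-inducible cytochrome, differed by -0.05 (SE 0.23). Of 32 fatty acid genes, 5 rose and 1 fell (median 0.18). The rises are 15.6% of the list, beside 4.4% of all genes tested. Scd1, stearoyl-CoA desaturase, rose from 12577 and 11628 to 26489.7 and 26415 (1.11, SE 0.12), and its other probe set by 1.35. Crat, carnitine acetyltransferase (1.31, SE 0.23), the acyl-CoA dehydrogenase gene Acadm (1.09, SE 0.21), the carnitine transferase gene Cpt1a (0.77, SE 0.15) and the elongase gene Elovl5 (0.75, SE 0.11) rose as well. Plin2, which coats lipid droplets, fell from 8726 and 10660.3 to 6379 and 4789 (-0.78, SE 0.18). Beside Ch25h, the 20 sterol genes held 1 more call, the lysosomal cholesterol exporter Npc1 (0.79, SE 0.18). The sterol list was thus called at 10%, near the 8.68% of all genes. The lysosomal lipid hydrolases Smpd1 and Asah1 rose (0.80 and 0.70), out of 43 lysosomal genes of which 3 rose. These are 6.98% of the list, beside 8.68% of all genes called and 4.4% called higher. In the hypoxia list Egln1, the oxygen-sensing prolyl hydroxylase, rose from 368 and 413 to 1622 and 1474 (1.49, SE 0.26), the glycolytic enzyme gene Pfkl by 0.62 (SE 0.15), and Hif1a changed by -0.41 (SE 0.10). None of 54 respiratory chain, 38 antioxidant and 25 ribosomal protein genes was called with limma (7, 7 and 1 had an unadjusted p under 0.05). Their medians were 0.12, 0.10 and 0.03. In the same order of lists, 2, 2 and 1 genes were called without ethanol replicate 1, and 2, 1 and 0 without ethanol replicate 2 (unadjusted p under 0.05 in 8, 8 and 1). Fatty acid calls numbered 2, 1, 11 and 5, lysosomal calls 0, 0, 5 and 5 (unadjusted p under 0.05 in 9, 7, 13 and 9) and glycolysis and hypoxia calls 1, 1, 7 and 2 without poly IC replicates 1 and 2 and ethanol replicates 1 and 2 in turn. No longer called without poly IC replicate 1 were Crat (1.22), Acadm (1.17), Cpt1a (0.83), Plin2 (-0.92), Npc1 (0.76), Smpd1 (0.83), Asah1 (0.65), Egln1 (1.44), Pfkl (0.71) and Hif1a (-0.43), and without replicate 2 Crat (1.40), Acadm (1.01), Cpt1a (0.72), Elovl5 (0.74), Plin2 (-0.64), Npc1 (0.81), Smpd1 (0.77), Asah1 (0.75), Egln1 (1.54), Pfkl (0.52) and Hif1a (-0.39). Plin2 (-0.58), Npc1 (0.66), Pfkl (0.58) and Hif1a (-0.33) also lost their calls without ethanol replicate 2, as did Cpt1a, Npc1, Asah1, Pfkl and Hif1a after centring arrays on their medians, and Hif1a after quantile normalization.

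Of 35 p53 target, apoptosis and survival genes, 5 rose and 1 fell, with a median of 0.02. The rises are 14.3% of the list, beside 4.4% of all genes, and calls numbered 4, 3, 10 and 8 without poly IC replicates 1 and 2 and ethanol replicates 1 and 2 in turn. Phlda1, a pleckstrin-domain gene, rose from 973 and 1036 to 4176 and 3453 (1.69, SE 0.19). Sesn1, a sestrin that lowers mTORC1 activity, was 924 and 997 in the poly IC pools against 3506 and 3135 in the ethanol pools, and 13403 on the naive array (1.56, SE 0.18). Gadd45a, a DNA damage and stress gene, was 6065 and 5299 in the poly IC pools against 17782 and 13420.3 in the ethanol pools (1.41, SE 0.17), with both ethanol arrays above the naive signal of 4287. The other p53 target Cdkn1a (p21) was not called (-0.39, adjusted p = 0.192). Among 41 cell cycle genes, 3 rose, among them the inhibitor gene Cdkn2d (3805 and 3061 to 7315 and 7542, 1.07) and thymidine kinase Tk1 (1.14), and the histone gene H2az1 fell (-0.60). The calls made up 9.76% of the list, near the 8.68% of all genes. This list gave 1, 0, 7 and 4 (unadjusted p under 0.05 in 7, 7, 11 and 8) calls without poly IC replicates 1 and 2 and ethanol replicates 1 and 2 in turn, with limma. Pdcd4, which limits translation initiation, rose by 0.88 (SE 0.19). Tk1 (1.26), H2az1 (-0.59) and Pdcd4 (0.78) missed the threshold when poly IC replicate 1 was left out, and Cdkn2d (0.92), Tk1 (1.01), H2az1 (-0.62) and Pdcd4 (0.97) when replicate 2 was. H2az1 (-0.43) also lost its call without ethanol replicate 2, as did H2az1 and Pdcd4 after centring arrays on their medians, and H2az1 after quantile normalization.

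Surface, matrix and migration genes held scattered calls. Of 33 adhesion, coagulation and matrix genes 3 rose and 3 fell, and of 33 G-protein and migration genes 1 rose and 1 fell. The calls made up 18.2% and 6.06% of these lists, beside 8.68% of all genes. Calls in the adhesion list numbered 1, 2, 9 and 6 without poly IC replicates 1 and 2 and ethanol replicates 1 and 2 in turn. Fcgr1, the high-affinity IgG receptor and a known interferon-gamma target, fell from 26225 and 33345 to 12016 and 9109 (-1.48, SE 0.17), and its other probe set by 1.54 on the log2 scale. Olr1, a scavenger receptor for oxidised lipoprotein, went from 5709 and 5089 to 2547 and 2044 (-1.16, SE 0.18). Clec4e (Mincle), a receptor for mycobacterial glycolipid, changed by -0.71 (SE 0.14). Of 27 complement, Fc and uptake receptors, 3 fell and none rose with limma (9 had an unadjusted p under 0.05, median -0.03), and 1, 1, 6 and 4 were called without poly IC replicates 1 and 2 and ethanol replicates 1 and 2 in turn. The complement, Fc and uptake list was called at 11.1%, beside 8.68% of all genes (4.29% lower). Rhob, a small GTPase of endosome traffic, was 12562 and 14046 in the poly IC pools against 4177 and 4278 in the ethanol pools, with both ethanol signals below the 13124 of the naive array (-1.60, SE 0.14). Vcan, a proteoglycan of inflammatory monocytes, was 8475 and 8479 in the poly IC pools against 3145 and 2171 in the ethanol pools (-1.61, SE 0.19). The protease inhibitor Timp1 fell from 15368 and 17389.7 to 6245 and 9684 (-1.05, SE 0.20), Mmp14, a membrane-anchored protease, changed by -0.77 (SE 0.16), and Selplg, the P-selectin ligand, rose by 0.63 (SE 0.12). Gzmb, granzyme B, was 5284 and 3032 in the poly IC pools against 1059.6 and 1451 in the ethanol pools (-1.51, SE 0.26), and Cd2 went the other way (10284 and 7161 to 17342 and 18478, 1.04, SE 0.18). Both are on the T and natural killer cell list, in which 1 of 11 members rose and 1 fell. These calls made up 18.2% of that list, beside 8.68% of all genes. Without poly IC replicate 1 the calls of Olr1 (-1.08), Clec4e (-0.77), Timp1 (-1.13), Mmp14 (-0.85) and Gzmb (-1.14) were lost, and without replicate 2 those of Olr1 (-1.23), Clec4e (-0.64), Timp1 (-0.96), Mmp14 (-0.69), Selplg (0.54) and Cd2 (0.79). Selplg also lost its call after centring arrays on their medians.

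**Figure D4:**
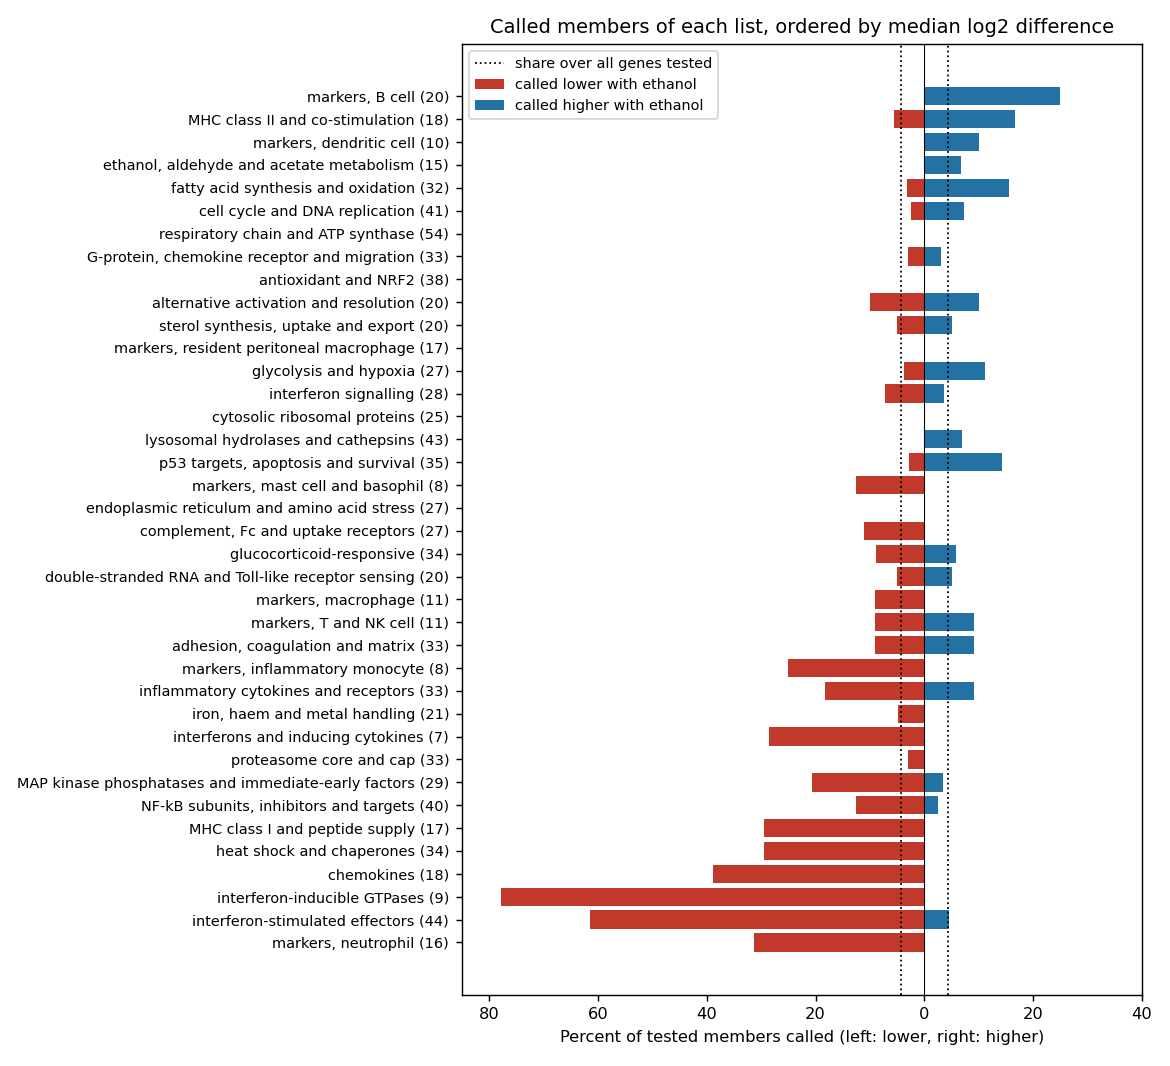
Bars give the percent of tested members called lower (left) and higher (right) with ethanol for each list with at least 7 tested members (number in brackets), ordered by the median log2 difference. Dotted lines mark 4.29% and 4.4%, the shares over all genes tested, and the interferon-inducible GTPases and interferon-stimulated effectors have the longest bars on the left.

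Outside the lists, 336 called genes remained, beside 148 on a list. Tested genes outside the lists were not counted, so no share is given. Upp1, uridine phosphorylase, fell from 3921 and 5461 to 1266 and 1376 (-1.64, SE 0.20), but its other probe set did not (-0.12). Slc10a6, a transporter of sulphated steroids, rose from 4325 and 3732 to 13898 and 10662 (1.54, SE 0.17), with a naive signal of 1478. Fam107b rose from 6298 and 5446 to 17912 and 20344 (1.66, SE 0.15) and the tetraspanin gene Tspan32 from 1319 and 1152 to 4029 and 4259 (1.57, SE 0.17). The genes that follow were chosen after their values were seen. Wdr43, Nop56, Ddx21 and Mdn1, each with a role in ribosome assembly, fell by 1.36, 1.02, 1.01 and 1.02 on the log2 scale. Wdr43 was 14706 and 15208 in the poly IC pools against 6268 and 5138 in the ethanol pools, and 3122 on the naive array. The polyamine enzyme gene Srm went from 5866 and 5952 to 2159 and 2862 (-1.17, SE 0.18) and the pyrophosphatase gene Ppa1 from 15673 and 16461 to 6544 and 6533 (-1.26, SE 0.13). Ms4a6c, a membrane gene of monocytes, changed by -1.48 (SE 0.18). Among the rises, Mknk2, a kinase of the initiation factor eIF4E, was 1354 and 1490.2 in the poly IC pools against 3864 and 4952 in the ethanol pools (1.47, SE 0.19). Pmp22, a peripheral myelin protein gene, rose from 4309 and 4749 to 13111 and 12049.5 (1.43, SE 0.15). The lymphocyte chemokine receptor gene Ccr6 rose from 5822 and 6029 to 12812 and 14163 (1.15, SE 0.14), beside the B cell markers, and the adenylate cyclase gene Adcy7 by 1.13 (SE 0.15). No longer called without poly IC replicate 1 were Nop56 (-0.93), Ddx21 (-0.92), Mdn1 (-0.91) and Srm (-1.18), and without replicate 2 Nop56 (-1.11), Ddx21 (-1.10), Mdn1 (-1.13), Srm (-1.16) and Adcy7 (1.08).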

How the data were processed

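RNA of macrophages was read on Affymetrix MG-U74Av2 arrays, 1 per sample. The deposited values are signals (intensity on a linear scale) that the submitters made with Microarray Suite 5.0, scaled to a target of 2500, per the labels' protocols. Data Mining Tool 3.0 is also named in the submitters' processing notes. Groups came from the sample titles. The members and gene lists were chosen with earlier results of these data known. Of 12422 probe sets that are not controls, the 7453 with a mean over the 4 treated arrays of at least the 40th percentile were tested on log2(signal + 250) with limma 3.58.1 (R 4.3.3; lmFit, then eBayes with its trend option), with Benjamini-Hochberg adjustment over all of them. With 2 residual degrees of freedom, the spread of each probe set rested largely on the spread of the others (6.78 prior degrees of freedom). A gene was read from its brightest tested probe set with 1 symbol in the platform annotation. Symbols were updated by gene ID through RefSeq (GRCm38.p6), which held 10817 of 10833. Of 12422 probe sets, 396 had several symbols and 1193 none. Genes were named from among the largest called changes in each direction, the called members of the lists, and listed genes of known role. Not all of these are named, and some unnamed chemokines and GTPases fell further than the named ones. A bound of the fold was given where both arrays of the dimmer group lay below the brightest of the 15 unspiked controls. That control's signal on each array then stood for the gene. The fit was tested on simulated data. Alternatives were other offsets, filters, normalizations and variance priors, the naive array in the fit, the replicate number as a block, the mean of probe sets per gene, and each array left out. No source used here gives the number of mice per pool, the route of poly IC or the time of harvest.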

Additional observations from a re-analysis of the deposited data

How the results depend on the processing

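Of the probe sets, 584 were called in the comparison as reported (296 higher, 288 lower). Leaving out 1 array gave 111 to 990 calls (48 to 477 higher, 63 to 513 lower), with the fewest without poly IC replicate 2. Testing all probe sets gave 258 (120 and 138), and a variance prior without the trend 61 (29 and 32). Centring arrays on their medians gave 423 (149 and 274). The remaining alternatives on probe sets (offsets of 50 and 1000, the 60th percentile filter, quantile normalization, robust eBayes, the naive array in the fit) gave 564 to 721 calls. The mean of probe sets per gene gave 533 called genes, beside 484 genes in the comparison as reported. Deviations from the group means correlated at 0.036 between samples of equal number, over 7453 probe sets. With 2 arrays a group this is 1 comparison, so it cannot tell whether the numbers mark pairs. A block for the replicate number gave 689 calls. Of 214 genes named by rule, 122 were called. No called one changed direction under an alternative that tested it, except Tap1, whose mean over probe sets was 0.17. The causes were not tested. With 2 arrays a group, probe sets near background had few calls.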
